A study of Phaseolus vulgaris with 36 samples.

Results

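The first end of chromosome 4 of common bean (Phaseolus vulgaris) is described here through the genes whose identifiers run from Phvul.004G000100 to Phvul.004G022000 in number order. The deposited tables hold 255 such genes of 27433 in all, and 1574 further genes lie on the rest of chromosome 4. The block was selected on accession differences that had already been measured in these same libraries, at each of the 3 pod stages. Differences between accessions in the 255 genes, called the members of the block, are therefore given as a description without a test. Changes between stages within an accession were not used for the choice, and these were tested. Whether a step differs between accessions is built from the accession differences at each stage, so it is not independent of the choice, and its adjusted p is printed as a description only. Order along the chromosome is the order of the identifiers, since the files hold no coordinates, and they pair no gene name with an identifier.

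Pods were sampled from 4 accessions, all untreated. The wild accession, G12873, is labelled fully dehiscent, meaning that its ripe pods open by themselves along the sutures. The other 3 are domesticated. Of these, MIDAS is labelled indehiscent, with pods that stay closed, while SXB405 and ICA Bunsi carry the label middle. Each accession was sampled as a first pod (R7), during pod filling (R8) and as a mature pod (R9), with 3 libraries in each of the 12 groups. G12873 is the only wild accession and MIDAS the only indehiscent one, so accession, domestication and dehiscence cannot be told apart. Whether the 3 libraries of a group are separate plants is not labelled. The p-values therefore measure only how far these libraries spread, and that spread may be technical. Whole pods hold many cell types, and fewer cells of a type and less RNA per cell cannot be told apart.

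As background, one end of bean chromosome 4 is known for a large cluster of disease-resistance genes of the nucleotide-binding and leucine-rich-repeat class, named B4. The proteins of this class sense molecules of pathogens inside the plant cell and start a defence response. Their genes sit in arrays of similar copies that differ in number and sequence among bean lines. Which of the 255 identifiers, if any, belong to that cluster is not given in the files. Near-identical copies can take each other's reads in the estimated counts, so values of members with close copies are uncertain.

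Total estimated counts ranged from 2032506 to 15202576 a library, and a set of 9 abundant genes that rose and fell together took from 1.95% to 85.9% of them. The set took over 50% in 8 libraries. At R7 these were replicates 1 and 2 of G12873 and replicate 3 of ICA Bunsi, at R8 replicate 2 of MIDAS, and at R9 replicate 1 each of SXB405 and MIDAS with replicates 1 and 3 of ICA Bunsi. The members together held between 819 counts, in G12873 R7 replicate 1, and 62718 counts. A floor of 3 counts corresponds to 9.96 CPM (counts scaled to a common library size) in G12873 R7 replicate 1 and to 3.03 CPM in replicate 2, against 0.178 CPM in replicate 3, so an estimate of 0 in the first 2 of these libraries says little.

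The block was expressed at lower levels than the genome at large, and part of it was silent. Of the 255 members, 27 (10.6%) had no count in any library, against 5.18% of all genes. Enough counts for testing were present for 179 members (70.2%, against 76.4% of all genes), and 76 were not tested. The median of the tested members was 3.33 TPM (a level scaled for transcript length and library size), against 7.16 TPM over all tested genes. A mean of at least 10 TPM was reached by 61 members (23.9%, against 31.0%), and a mean of at least 100 TPM by 3 (1.18%, against 3.38%). These 3 were Phvul.004G011900 with a mean of 531 TPM, Phvul.004G002600 with 241 TPM and Phvul.004G000400 with 101 TPM, the last named after its values were seen.

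The members' transcripts were also long. A longest transcript of 3000 bases or more was listed for 47 members (18.4%), against 9.22% of all genes, while the medians of 1564 and 1476 bases were close. A single transcript was listed for 86.3% of the members and for 80.8% of all genes. Identifier numbers between the regular steps of 100 belonged to 23.1% of the members, against 6.73% of genes on the 11 chromosomes. Among tested members of 3000 bases or more, 25% differed between accessions at all 3 stages (against 10.2% of all tested genes of that length), and among shorter ones 26.7% did (against 13.3%).

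Accession differences were frequent along the block at every stage. A gene was called over the 4 accessions when edgeR's quasi-likelihood test gave an adjusted p under 0.05 (Benjamini-Hochberg, 20966 genes) and the accessions differed by at least 1 on the log2 scale. Calls over the 4 accessions fell on 90 of 179 tested members at R7 (50.3%, against 40.1% of all genes tested), 91 at R8 (50.8%, against 41.4%) and 91 at R9 (50.8%, against 35.3%). At all 3 stages 47 members were called (26.3%), against 13.0% of all genes tested and 15% on the rest of chromosome 4. Whole chromosomes ranged from 11% to 16.6%. These shares are what the block was selected on.

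The calls were spread over the block and did not sit in 1 stretch. Cut into 5 runs of 51 members, the block held 7, 11, 9, 11 and 9 members called at all 3 stages. In windows of 50 tested genes along chromosome 4, the 3 windows made of members alone held 22%, 32% and 28% such genes, and the window across the end of the block held 18%. Windows at 28% also lay elsewhere on the chromosome, at window numbers 7, 17 and 23.

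**Figure D1:**
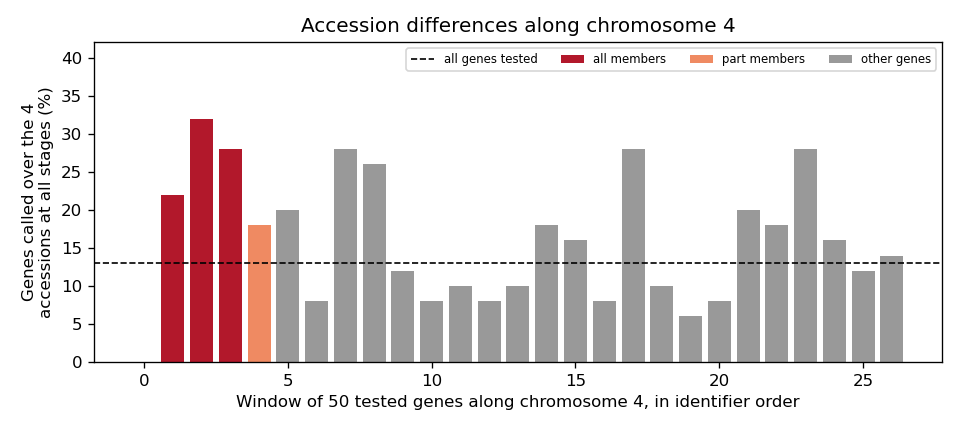
Share of genes called over the 4 accessions at all 3 stages (y axis, percent) in windows of 50 tested genes along chromosome 4 in identifier order (x axis, window number), with windows of members in red, the window across the block's end in orange and the dashed line at 13.0%, the share of all genes tested. The 3 red windows stand at 22%, 32% and 28%, and grey windows 7, 17 and 23 also reach 28%.

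The first listed member, Phvul.004G000300, had CPM from 0 to 7.93 over the 36 libraries, and the last, Phvul.004G022000, from 0 to 9.36. The next gene outside, Phvul.004G022100, ranged from 26.6 to 322 CPM.

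The size of the differences was larger among members than among all genes in each of the 18 pairwise comparisons. The median absolute log2 difference ran from 0.51 to 1.10 among members and from 0.40 to 0.78 among all tested genes. These sizes were not matched for expression level, and the tested members had a median of 3.33 TPM, against 7.16 TPM over all tested genes. MIDAS and G12873 differed in the same direction at all 3 stages in 18 members (10.1%, against 4.02% of all genes tested), with 10 higher in MIDAS (against 1.96%) and 8 lower (against 2.06%). MIDAS and ICA Bunsi also differed in 18 members (against 3.29%), 10 higher in MIDAS (against 1.84%) and 8 lower (against 1.45%). MIDAS and SXB405 differed in 14 members (7.82%, against 3.67%), 7 higher in MIDAS (against 2.11%) and 7 lower (against 1.56%).

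The other 3 pairs gave fewer such members. SXB405 and ICA Bunsi, both of the middle class, differed in 9 members (5.03%, against 0.83%), 7 higher in SXB405 (against 0.467%) and 2 lower (against 0.362%). G12873 was apart from ICA Bunsi in 12 members (6.70%, against 1.82%), 8 higher in G12873 (against 0.983%) and 4 lower (against 0.835%). G12873 and SXB405 were apart in 11 members (6.15%, against 2.41%), 7 higher in G12873 (against 1.28%) and 4 lower (against 1.13%). In all, 43 members (24.0%, against 8.62% of all genes tested) were called at all 3 stages for at least 1 pair. Without the 8 libraries named above, the count for MIDAS and G12873 was 11. That fit keeps only 1 library in G12873 R7. The count for MIDAS and ICA Bunsi was 11 without ICA Bunsi R9 replicate 2. The count for G12873 and SXB405 was 5 without G12873 R7 replicate 3 and 7 without SXB405 R7 replicate 2, R9 replicate 1 or R9 replicate 2.

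**Figure D2:**
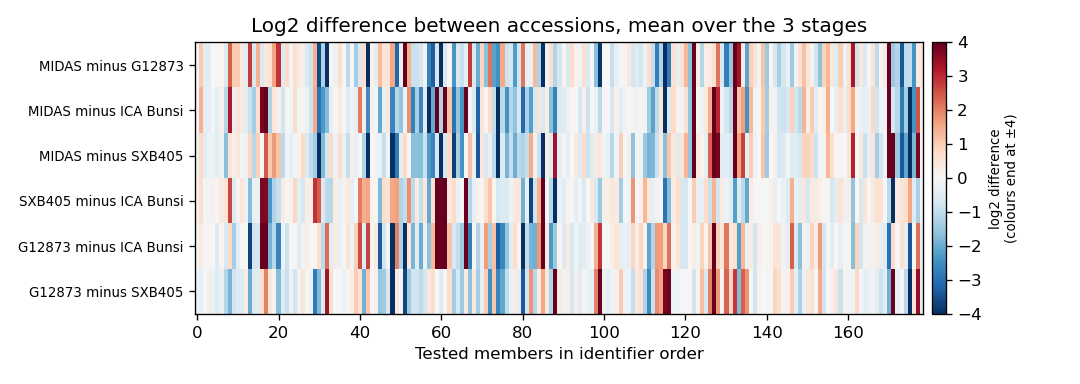
Log2 difference between accessions, as the mean over the 3 stages, for the 179 tested members in identifier order (x axis) and the 6 accession pairs (rows), with red for higher in the first accession, blue for lower and colours ending at 4 in size. Strong colours stand mostly as single columns, and the dark band near position 60 in the rows of SXB405 and G12873 minus ICA Bunsi is the run of 3 members from Phvul.004G009000 to Phvul.004G009100.

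ICA Bunsi stood lowest in a few members that the other accessions expressed. It was lower than each other accession at all 3 stages in 4 members (2.23%, against 0.105% of all genes tested), namely Phvul.004G002300, Phvul.004G009000, Phvul.004G009100 and Phvul.004G009161. For Phvul.004G009000 and Phvul.004G009100 the G12873 side at R7 rested on replicate 3, the only R7 library there with 1 count or more. Among the members described for their accession differences, Phvul.004G002300, Phvul.004G009000, Phvul.004G009100, Phvul.004G009809 and Phvul.004G015800 came from the naming rule, and the others were named after their values were seen.

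Phvul.004G002300, with 3 transcripts, had 0.169, 0.339 and 0 CPM in ICA Bunsi at R7, 0.377, 0.571 and 0.252 CPM at R8, and 0 CPM in all 3 libraries at R9. The other 27 libraries ran from 0.727 to 16.0 CPM, so the ICA Bunsi libraries did not overlap them. MIDAS was highest at R7 with 8.55, 15.3 and 16.0 CPM. SXB405 lay between, at 1.35, 2.09 and 1.96 CPM at R7, and G12873 at 6.64, 9.10 and 9.45 CPM. Its neighbour Phvul.004G002200 was likewise low in ICA Bunsi, with 0 CPM in the 3 R7 libraries and at most 0.755 CPM in any ICA Bunsi library, while SXB405 held 0.817 CPM or more throughout. MIDAS was above ICA Bunsi in both neighbours at all 3 stages.

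The longest run of neighbours apart in 1 direction was of 3 members, Phvul.004G009000, Phvul.004G009041 and Phvul.004G009100, all higher in SXB405 and in G12873 than in ICA Bunsi at all 3 stages. Phvul.004G009000, with a transcript of 450 bases, had 0.169 CPM in 1 ICA Bunsi library, R7 replicate 1, and 0 in the other 8. SXB405 had 2.4, 2.54 and 2.97 CPM at R7, 3.90, 5.25 and 8.17 CPM at R8, and 4.07, 10.7 and 5.77 CPM at R9. The SXB405 and ICA Bunsi libraries did not overlap. In G12873, 2 of the 9 libraries held under 1 count of each of the 3 members. For Phvul.004G009000 and Phvul.004G009100 these were R7 replicates 1 and 2, so at R7 the G12873 level rested on replicate 3.

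Phvul.004G009100 had no count in any of the 9 ICA Bunsi libraries, whose floors of 3 counts ran from 0.239 to 2.81 CPM. In SXB405 it had 0.784, 1.09 and 0.443 CPM at R7, 1.81, 1.54 and 2.62 CPM at R8, and 1.75, 2.34 and 2.61 CPM at R9. In MIDAS it had 0.798, 0.716 and 0.958 CPM at R8, which lies above the floors of 0.245 to 0.283 CPM in ICA Bunsi R8. The level in ICA Bunsi was thus below detection at this depth. The middle member of the run, Phvul.004G009041, was near 0 in MIDAS as well, with 0 CPM in 8 of 9 libraries, so the 3 neighbours did not share 1 pattern over all 4 accessions.

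A further member, Phvul.004G009161 (longest transcript 4970 bases), had 0 CPM in the 3 ICA Bunsi libraries at R7, 0.188, 0.163 and 0.839 CPM at R8, and 0, 0.398 and 0 CPM at R9. SXB405 ranged from 2.79 to 10.3 CPM and MIDAS from 3.83 to 14.7 CPM, both without overlap with ICA Bunsi. G12873 ranged from 0 to 16.3 CPM, and its 0 was in R7 replicate 1, where 3 counts are 9.96 CPM.

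No member was called higher in ICA Bunsi than in each other accession at all 3 stages (0 of 179, against 0.0286% of all genes tested). In 1 member, all the same, every ICA Bunsi library lay above every other library, by a narrow gap. Phvul.004G009809 had 12.7, 11.6 and 16.9 CPM in ICA Bunsi at R7, 9.04, 5.46 and 9.65 CPM at R8, and 6.61, 20.3 and 6.55 CPM at R9. No library of another accession exceeded 5.13 CPM. SXB405 ranged from 1.83 to 4.93 CPM, MIDAS from 0 to 5.13 CPM and G12873 from 0 to 1.46 CPM.

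MIDAS was set apart by a member that was nearly absent elsewhere at R8. Phvul.004G021000 had 84.8, 109 and 118 CPM in MIDAS at R7, 17.4, 20.3 and 25.5 CPM at R8, and 14.1, 1.15 and 0.277 CPM at R9. It had 0 counts in 8 of the 9 G12873 libraries, and ICA Bunsi and SXB405 did not exceed 1.60 and 5.37 CPM. MIDAS was above all other libraries at R7 and at R8. At R9 its value rested mostly on replicate 1, 1 of the 8 libraries rich in the abundant set. In SXB405 the R7 libraries had 0.740, 1.09 and 5.37 CPM and those at R8 none, a fall that was also called (adjusted p = 0.00401 by edgeR's quasi-likelihood test). From R7 to R8 the level fell in MIDAS by 2.30 on the log2 scale (SE 0.73, adjusted p = 0.0281 by edgeR's quasi-likelihood test), and from R8 to R9 by a further 2.63 (SE 0.88, adjusted p = 0.0226). The F-test of the R7 to R8 step over accessions gave an adjusted p of 0.236.

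MIDAS was above each other accession at all 3 stages in 2 members (1.12%, against 0.487% of all genes tested), Phvul.004G014732 and Phvul.004G015666. Phvul.004G014732 had 17.8, 12 and 18.1 CPM in MIDAS at R7, 34.1, 37.5 and 23.8 CPM at R8, and 78.3, 44.9 and 97.9 CPM at R9. SXB405, the lowest in the mean at each stage, had 0.653, 0.544 and 0.695 CPM at R7 and 7.85, 8.56 and 7.11 CPM at R9. Phvul.004G015666 ranged from 1.95 to 5.67 CPM in MIDAS, and the other 27 libraries had at most 0.591 CPM, so the libraries did not overlap. MIDAS was below each other accession in 1 member (0.559%, against 0.496%), Phvul.004G005600. That member had 0, 0.247 and 0 CPM in MIDAS at R7, against 9.62, 11.8 and 11.8 CPM in SXB405, and its MIDAS libraries reached 3.51 CPM at R9 while SXB405 reached 25.0 CPM.

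G12873 was below each other accession at all 3 stages in 1 member (0.559%, against 0.258%), Phvul.004G008560, and above each in 1 (0.559%, against 0.229%), Phvul.004G013100. Phvul.004G008560 had 0.693, 0.370 and 0 CPM in G12873 at R8, against 3.2, 3.10 and 3.52 CPM in ICA Bunsi and 3.38, 2.39 and 3.35 CPM in MIDAS. No library passed 4.78 CPM of it, while the floors of G12873 R7 replicates 1 and 2 are 9.96 and 3.03 CPM. Those libraries thus say little about its level in G12873 at R7. Phvul.004G013100 had 11.1, 13.4 and 10.3 CPM in G12873 at R8, and no other R8 library passed 4.45 CPM. Phvul.004G015800, with a transcript of 6652 bases, had at most 1.36 CPM in G12873 and at least 1.48 CPM in every other library, a gap narrower than the spread within an accession. It was highest in MIDAS, at 8.43, 9.25 and 11.5 CPM at R7, and its values of 0 in G12873 R7 replicates 1 and 2 lie in libraries whose floors are 9.96 and 3.03 CPM.

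SXB405 had no member that was above or below each other accession at all 3 stages. Its widest difference from ICA Bunsi among the lower members was at Phvul.004G010100, with 0.958, 1.32 and 0.822 CPM in SXB405 at R7 and 0 CPM in its 6 libraries at R8 and R9. ICA Bunsi had 6.31, 3.59 and 1.76 CPM at R8 and 3.78, 1.27 and 1.87 CPM at R9. Phvul.004G005400 was high in SXB405, with 108, 207 and 132 CPM at R8, against 12.2, 19.5 and 8.56 CPM in ICA Bunsi.

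**Figure D3:**
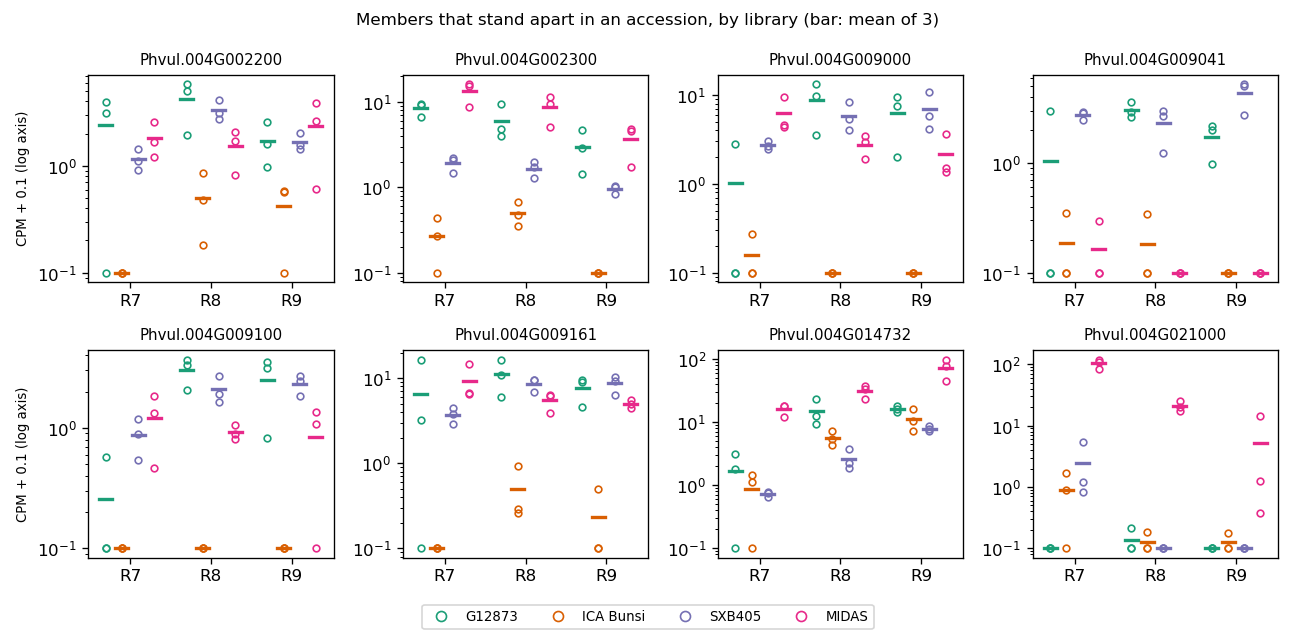
CPM plus 0.1 on a log axis (y) by stage (x) for 8 members, with 1 open point a library, a bar at the mean of 3 and a colour for each accession. ICA Bunsi is at or near 0 in Phvul.004G002200, Phvul.004G002300, Phvul.004G009000, Phvul.004G009041, Phvul.004G009100 and Phvul.004G009161. MIDAS is high in Phvul.004G014732 and, at R7 and R8, in Phvul.004G021000.

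Across the block, full separation of the libraries of an accession or a pair of accessions from all others was rare. It was seen in 4 tested members (2.23%, against 1.23% of all genes tested), which were Phvul.004G002300, Phvul.004G009809, Phvul.004G015666 and Phvul.004G015800. No member was at 0 in all 9 libraries of an accession while holding at least 10 counts in each library of another (0 of 255, against 0.0802% of all genes).

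Whether neighbours differed together was read first from the sign of the difference. Among the 178 pairs of neighbouring tested members, the log2 difference between MIDAS and G12873, averaged over the stages, had the same sign in both neighbours in 50% (exact binomial 95% interval 42.4% to 57.6%), against 52.1% over all neighbouring genes of the 11 chromosomes. These intervals cover counting only, and neighbouring pairs share genes. For MIDAS and ICA Bunsi the share was 52.2% (against 51.9%), for G12873 and ICA Bunsi 50.6% (against 51.6%), for G12873 and SXB405 53.9% (against 52.5%) and for SXB405 and ICA Bunsi 56.2% (against 51.8%). The highest share, 60.1% (52.5% to 67.4%), was for MIDAS and SXB405, and its interval lay just above the 52.1% of all genes, while the intervals of the other 5 pairs held the share of all genes. For MIDAS and SXB405 the share went down to 54.2% under the alternative settings. Its median log2 difference among members was below 0 at R7 (-0.23), R8 (-0.36) and R9 (-0.21). A lean to 1 sign raises the share whatever the order of the genes, so nothing about neighbours is read from it. For the stage steps the shares ran from 44.4% to 55.1% among members and from 51% to 52.5% over all genes.

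Neighbours that were both called at all 3 stages came to at most 3 of the 178 pairs, but in 5 of the 6 accession pairs their share was above that of all neighbouring genes. For SXB405 and ICA Bunsi there were 3 (1.69%, against 0.063% of all neighbours), all in the same direction, and for G12873 and ICA Bunsi 3 (1.69%, against 0.136%), of which 2 were in the same direction. MIDAS gave 2 with G12873 (1.12%, against 0.334%) and 2 with ICA Bunsi (1.12%, against 0.266%), of which 1 each was in the same direction. MIDAS and SXB405 gave 1 (0.562%, against 0.358%), in the same direction, and G12873 and SXB405 gave 0 (against 0.203%). Members were called more often than other genes to begin with, and the block was selected for it, so nothing is read from these shares. Besides the run of 3, the same-direction neighbours were Phvul.004G015666 with Phvul.004G015800 (higher in MIDAS than in G12873), Phvul.004G002200 with Phvul.004G002300 (higher in MIDAS than in ICA Bunsi), Phvul.004G008740 with Phvul.004G008861 (lower in MIDAS than in SXB405) and Phvul.004G005400 with Phvul.004G005600 (higher in SXB405 than in ICA Bunsi).

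The likeness of accession profiles was weak between most neighbours. Over the 12 group means of log2 CPM, each centred within its stage, the median Pearson correlation of neighbouring members was 0.18, against 0.12 over all neighbouring genes. A correlation over 0.7 was found for 11.8% of neighbouring members, against 7.15% of all neighbouring genes. At a distance of 3 tested genes the shares were 5.11% and 5.42%, and at 10 tested genes 10.1% and 4.92%. The 12 means come from the same 36 libraries and share their depth, so these correlations are a description. The most alike neighbours were Phvul.004G020300 and Phvul.004G020400 (r = 0.92, 12 means) and Phvul.004G012600 and Phvul.004G012700 (r = 0.88), and the pair Phvul.004G002200 and Phvul.004G002300 stood at 0.82.

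From the first pod to pod filling, the share of members called was near or below that of all genes in each accession. The share of rises lay above that of all genes in each accession, in ICA Bunsi by little, and the share of falls lay below. Whether these shares differ by more than counting error was not tested, so nothing about the block is read from them. A step was called at an adjusted p under 0.05 by edgeR's quasi-likelihood test, adjusted over all genes tested, and a change of at least 1 on the log2 scale. In G12873, 43 members changed from R7 to R8 (24.0%, against 24.7% of all genes tested), with 25 up (14.0%, against 11.9%) and 18 down (10.1%, against 12.8%). In SXB405, 44 changed (24.6%, against 25.2%), 27 up (15.1%, against 10.6%) and 17 down (9.50%, against 14.5%). ICA Bunsi had 32 (17.9%, against 23.2%), 22 up (12.3%, against 11.9%) and 10 down (5.59%, against 11.2%). MIDAS had 26 (14.5%, against 16.8%), 16 up (8.94%, against 7.50%) and 10 down (5.59%, against 9.30%).

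Some of these counts rested on single libraries. Leaving out the 8 libraries named above keeps only 1 library, replicate 3, in G12873 R7. Without the 8 libraries named above G12873 had 27, and without G12873 R7 replicate 2 alone it had 26. ICA Bunsi had 18 without R8 replicate 3. For MIDAS the count was 14 when R7 replicate 1 was left out, 11 for R7 replicate 3, 13 for R8 replicate 1 and 17 for R8 replicate 2.

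From pod filling to the mature pod the count of members called ran from 0 to 43. MIDAS had 43 members called (24.0%, against 30.3%), 21 up (11.7%, against 14.2%) and 22 down (12.3%, against 16.2%). ICA Bunsi had 31 (17.3%, against 15.4%), 18 up (10.1%, against 7.32%) and 13 down (7.26%, against 8.10%). SXB405 had 10 (5.59%, against 4.96%), 7 up (3.91%, against 2.85%) and 3 down (1.68%, against 2.11%). G12873 had 0 members called, against 0.0% of all genes tested, by edgeR, DESeq2 and limma-voom alike, while 16 members (8.94%, against 5.77% of all genes tested) had an unadjusted edgeR p under 0.05.

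Here too single libraries moved the counts. Leaving out the 8 libraries keeps only 1 library, replicate 2, in ICA Bunsi R9. ICA Bunsi had 12 without the 8 libraries, 18 without R8 replicate 2 and 19 without R9 replicate 3. For SXB405 it was 2 when R8 replicate 1 was left out, 3 for R8 replicate 2 and 5 for R9 replicate 1.

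The difference of the step itself was computed as an F-test over the 4 accessions, which, as said, shares its values with the choice of the block. The R7 to R8 step differed between accessions in 53 members (29.6%, against 33.7% of all genes tested), and the R8 to R9 step in 24 (13.4%, against 21.8%). Without ICA Bunsi R9 replicate 2 the second count was 39.

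**Figure D4:**
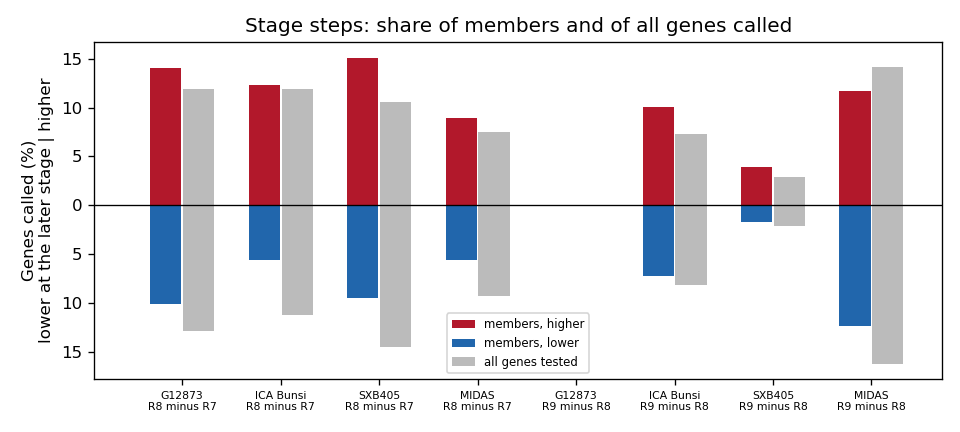
Percent of genes called for each stage step (y axis, higher at the later stage above 0 and lower below 0) in each accession (x axis), with members in red and blue and all genes tested in grey. From R7 to R8 the bars of members are taller than those of all genes for rises, in ICA Bunsi by little, and shorter for falls. G12873 has none from R8 to R9.

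Phvul.004G002600 has a short transcript of 576 bases and was the second most abundant member by CPM. In MIDAS it had 12.5, 7.40 and 9.66 CPM at R7, 4.36, 6.93 and 2.93 CPM at R8, and 1073, 389 and 698 CPM at R9. In ICA Bunsi it had 3.21, 4.51 and 4.47 CPM at R7, 106, 18.2 and 136 CPM at R8, and 1390.3, 941 and 1443 CPM at R9. In these accessions, as in G12873 and SXB405 below, the R9 libraries lay above all R8 libraries without overlap.

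In G12873 the same member had 0, 2.02 and 2.73 CPM at R7, 65.4, 25.7 and 35.5 CPM at R8, and 106, 85.9 and 65.6 CPM at R9. In SXB405 it had 2.13, 1.77 and 2.66 CPM at R7, 13.7, 31.0 and 28.8 CPM at R8, and 42, 67.3 and 83.4 CPM at R9. Both had risen by R8, as had ICA Bunsi, and both stayed under 110 CPM at R9. Their R9 libraries also lay above their R8 libraries, in G12873 only just (65.6 against 65.4 CPM).

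By edgeR's quasi-likelihood test Phvul.004G002600 rose from R7 to R8 in G12873 (log2 fold change 4.10, SE 0.66, adjusted p = 3.50e-05), ICA Bunsi (4.43, SE 0.56, adjusted p = 1.70e-06) and SXB405 (3.49, SE 0.53, adjusted p = 6.45e-06). MIDAS gave -1.12 (SE 0.51, adjusted p = 0.105). From R8 to R9 it rose in MIDAS by 7.31 on the log2 scale (SE 0.62, adjusted p = 7.47e-10) and in ICA Bunsi by 3.86 (SE 0.52, adjusted p = 1.51e-05), against 1.03 (adjusted p = 0.828) in G12873 and 1.39 (adjusted p = 0.0789) in SXB405. The step differed between accessions from R7 to R8 (adjusted p = 1.63e-05) and from R8 to R9 (adjusted p = 1.85e-06). Without ICA Bunsi R8 replicate 2 the MIDAS fall from R7 to R8 (-1.12, adjusted p = 0.0385) and the SXB405 rise from R8 to R9 (1.39, adjusted p = 0.0219) also passed.

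Its neighbour Phvul.004G002700, of 578 bases, was less abundant and also rose late. In MIDAS it had 2.39, 3.82 and 1.26 CPM at R8 and 13.6, 25.4 and 18 CPM at R9. In ICA Bunsi it had 1.79, 1.14 and 2.26 CPM at R8 and 30.7, 8.44 and 16.8 CPM at R9. In SXB405 it had 0.857, 0.910 and 1.23 CPM at R8 and 5.53, 5.71 and 2.76 CPM at R9. The R9 libraries lay above the R8 libraries in each of these accessions, and in G12873 the ranges of 1.29 to 2.49 CPM and 2.18 to 3.42 CPM overlapped.

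Phvul.004G002700 rose from R8 to R9 in ICA Bunsi (log2 fold change 3.38, SE 0.48, adjusted p = 2.22e-05), MIDAS (3.05, SE 0.46, adjusted p = 4.82e-06) and SXB405 (2.19, SE 0.48, adjusted p = 0.00632) by edgeR's quasi-likelihood test. G12873 gave 0.53 (SE 0.47, adjusted p = 0.992), and the step differed between accessions (adjusted p = 0.00767). From R7 to R8 it was called in no accession.

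Phvul.004G011900, with a transcript of 1026 bases, was the most abundant member. At R7 it had between 79.9 and 184 CPM in all 12 libraries. At R8 G12873 had 829, 1050.0 and 561 CPM and SXB405 334, 477 and 499 CPM, while ICA Bunsi had 191, 136 and 226 CPM and MIDAS 194, 176 and 164 CPM. At R9 MIDAS reached 1963, 1088 and 1617 CPM, ICA Bunsi 1413, 792 and 2144 CPM, SXB405 774, 1096 and 923 CPM, and G12873 941, 918 and 795 CPM. The level was thus high from R8 on in G12873, high only at R9 in MIDAS and ICA Bunsi, and in steps in SXB405.

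Phvul.004G011900 rose from R7 to R8 in G12873 (log2 fold change 2.78, SE 0.33, adjusted p = 6.01e-07) and SXB405 (1.53, SE 0.32, adjusted p = 0.000304) by edgeR's quasi-likelihood test. The values were 0.81 (adjusted p = 0.0469) in ICA Bunsi and 0.21 (adjusted p = 0.646) in MIDAS. From R8 to R9 it rose in MIDAS (3.13, SE 0.34, adjusted p = 2.02e-08), ICA Bunsi (2.98, SE 0.33, adjusted p = 1.53e-06) and SXB405 (1.09, SE 0.31, adjusted p = 0.0351), with 0.12 (adjusted p = 1.00) in G12873. The SXB405 call was lost when any 1 SXB405 library of R8 or R9 was left out (adjusted p from 0.0585 to 0.154). The step differed between accessions from R7 to R8 (adjusted p = 0.000449) and from R8 to R9 (adjusted p = 1.88e-05).

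**Figure D5:**
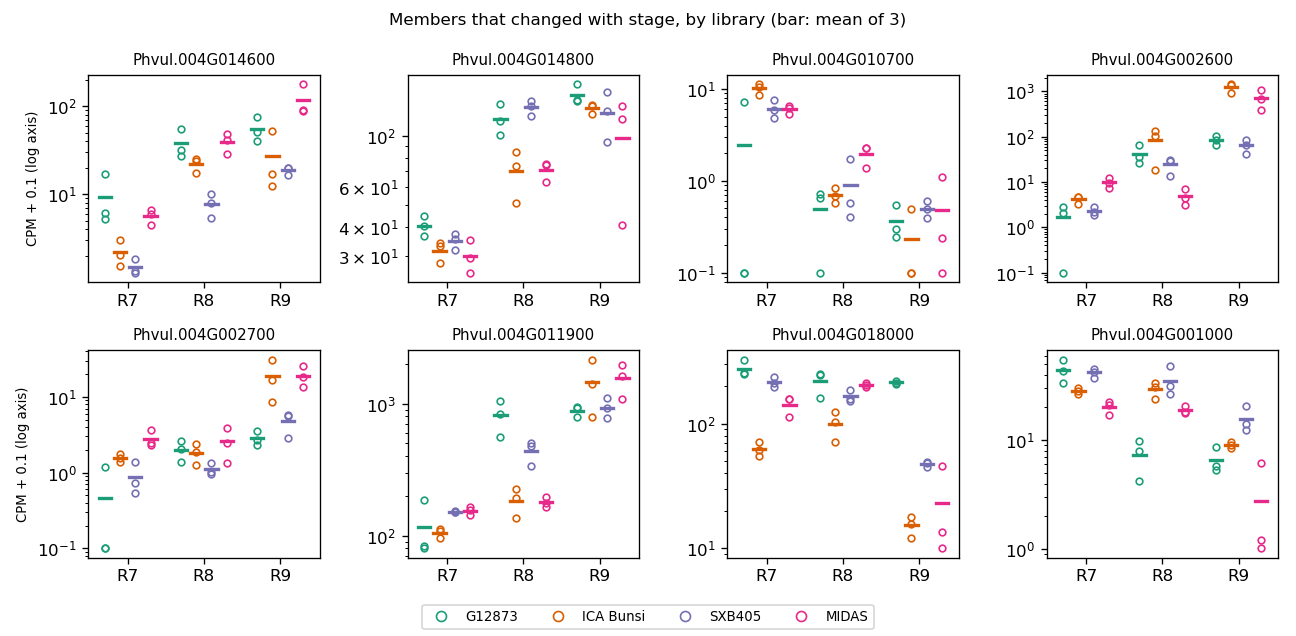
CPM plus 0.1 on a log axis (y) by stage (x) for 8 members that changed with stage, with 1 open point a library, a bar at the mean of 3 and a colour for each accession. Phvul.004G014600 and Phvul.004G014800 rise from R7 to R8 in all 4 accessions, Phvul.004G002600 and Phvul.004G011900 reach their highest levels in MIDAS and ICA Bunsi at R9, and Phvul.004G018000 stays between 160 and 325 CPM in G12873.

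Members that rose in all 4 accessions from R7 to R8 were Phvul.004G014600 and Phvul.004G014800 (2 of 179, 1.12%, against 0.673% of all genes tested). Phvul.004G014600 had 1.43, 1.92 and 2.87 CPM in ICA Bunsi at R7 and 25.0, 17.1 and 23.4 CPM at R8. In SXB405 it went from 1.22, 1.18 and 1.71 CPM to 9.80, 5.25 and 7.86 CPM, in MIDAS from 6.48, 4.32 and 5.85 CPM to 40.8, 48.2 and 28.6 CPM, and in G12873 from 16.6, 6.07 and 5.11 CPM to 55.0, 27 and 31.2 CPM. The R7 and R8 libraries did not overlap in any accession.

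The log2 fold changes of Phvul.004G014600 were 3.51 (SE 0.46, adjusted p = 2.73e-06) in ICA Bunsi, 2.81 (SE 0.41, adjusted p = 2.61e-05) in MIDAS, 2.57 (SE 0.50, adjusted p = 0.000269) in G12873 and 2.48 (SE 0.43, adjusted p = 3.64e-05) in SXB405, by edgeR's quasi-likelihood test. It rose again from R8 to R9 in MIDAS (1.60, SE 0.38, adjusted p = 0.00108), where R9 libraries had 89.8, 86.8 and 177 CPM. In SXB405 the R8 to R9 change of 1.29 passed narrowly (SE 0.39, adjusted p = 0.0443) and missed the threshold when any 1 SXB405 library was left out (adjusted p from 0.0515 to 0.196). It also missed without the 8 libraries (0.0508), with no low-count filter (0.0548) and, at adjusted p from 0.0513 to 0.0605, without G12873 R9 replicate 2, ICA Bunsi R7 replicate 2 or 3, ICA Bunsi R8 replicate 1, MIDAS R7 replicate 1 or 3, or MIDAS R8 replicate 1 or 2.

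Phvul.004G014800 rose by less and more evenly, from 25.3 to 44.5 CPM over the 12 libraries at R7 to 50.6 to 141 CPM at R8. Its log2 fold changes were 1.92 (SE 0.27, adjusted p = 1.54e-06) in SXB405, 1.52 (SE 0.28, adjusted p = 0.000155) in G12873, 1.24 (SE 0.27, adjusted p = 0.00119) in MIDAS and 1.14 (SE 0.27, adjusted p = 0.00157) in ICA Bunsi, by edgeR's quasi-likelihood test. Without ICA Bunsi R8 replicate 3 the change in ICA Bunsi was 0.98 (adjusted p = 0.0157), under the fold threshold, while its R8 to R9 change of 0.92 became 1.08 (adjusted p = 0.0127).

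One member was called lower at R8 than at R7 in all 4 accessions (0.559%, against 1.71% of all genes tested). This was Phvul.004G010700, with 8.61, 11.2 and 10.5 CPM in ICA Bunsi at R7 and 0.471, 0.734 and 0.587 CPM at R8. SXB405 went from 4.70, 5.81 and 7.40 CPM to 0.476, 1.61 and 0.308 CPM, and MIDAS from 6.11, 5.18 and 6.44 CPM to 1.29, 2.15 and 2.16 CPM. In G12873 it had 0, 0 and 7.07 CPM at R7 and 0, 0.554 and 0.622 CPM at R8, so there the groups overlapped and the fall rested on R7 replicate 3.

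The log2 fold changes of Phvul.004G010700 were -4.04 (SE 0.66, adjusted p = 4.06e-05) in ICA Bunsi, -2.85 (SE 0.62, adjusted p = 0.000568) in SXB405, -1.69 (SE 0.60, adjusted p = 0.0377) in MIDAS and -3.36 (SE 0.72, adjusted p = 0.000719) in G12873, by edgeR's quasi-likelihood test. Without G12873 R7 replicate 3 the fitted value in G12873 turned to 5.08 (adjusted p = 0.481). The MIDAS call was lost without any 1 of the MIDAS R7 or R8 libraries (adjusted p from 0.0531 to 0.157) and without ICA Bunsi R7 replicate 3 (adjusted p = 0.0525).

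Phvul.004G001900 was called lower at R8 in 3 accessions. SXB405 went from 3.18, 5.76 and 6.01 CPM at R7 to 0.190, 0 and 0 CPM at R8, and ICA Bunsi from 5.57, 5.30 and 6.38 CPM to 0.471, 2.04 and 0.168 CPM. In MIDAS the R7 values of 1.71, 2.22 and 2.05 CPM and the R8 values of 1.29, 1.91 and 1.62 CPM overlapped (log2 fold change -0.34, SE 0.77, adjusted p = 0.777, edgeR quasi-likelihood test), and the level fell from R8 to R9, to 0, 0.115 and 0 CPM (adjusted p = 0.00872).

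In G12873 Phvul.004G001900 had 0, 10.1 and 2.02 CPM at R7 and no count in any library at R8 or R9. The SXB405 and G12873 falls were called (adjusted p = 4.89e-05 and 0.000172). The ICA Bunsi fall (log2 fold change -2.65, SE 0.78, adjusted p = 0.0114) was not called without R8 replicate 1 (adjusted p = 0.0629) or without R8 replicate 3 (adjusted p = 0.0645). The R7 to R8 step differed between accessions (adjusted p = 0.00163, edgeR quasi-likelihood F-test).

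From R8 to R9 no gene of the 20966 tested was called in G12873, so no member could be called in all 4 accessions. A call in 3 accessions could for the same reason only be in the 3 domesticated ones. In these 3, 5 members rose (2.79%, against 0.601% of all genes tested) and 3 fell (1.68%, against 1.14%). Besides Phvul.004G002700 and Phvul.004G011900, the risers were Phvul.004G012200, Phvul.004G014732 and Phvul.004G021700. The members that fell were Phvul.004G018000, Phvul.004G001000 and Phvul.004G017000. Of these 8, Phvul.004G012200, Phvul.004G014732, Phvul.004G021700 and Phvul.004G017000 were named after their values were seen.

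Phvul.004G018000 was abundant until pod filling and dropped in the mature pods of the domesticated accessions. In MIDAS it had 203, 213 and 198 CPM at R8 and 45.2, 13.3 and 9.85 CPM at R9. In ICA Bunsi it went from 103, 123 and 70.5 CPM to 15.6, 11.9 and 17.8 CPM, and in SXB405 from 186, 152 and 158 CPM to 49.4, 47.9 and 44.3 CPM. G12873 had 249, 160 and 247 CPM at R8 and 212, 209 and 221 CPM at R9, so its stages overlapped while those of the other accessions did not.

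The log2 fold changes of Phvul.004G018000 from R8 to R9 were -3.25 (SE 0.34, adjusted p = 1.63e-08) in MIDAS, -2.76 (SE 0.35, adjusted p = 7.68e-06) in ICA Bunsi and -1.81 (SE 0.32, adjusted p = 0.000926) in SXB405, by edgeR's quasi-likelihood test. G12873 gave -0.03 (SE 0.31, adjusted p = 1.00), and the step differed between accessions (adjusted p = 3.50e-05).

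Phvul.004G001000 fell at different times in different accessions. In G12873 it had 43.2, 33.4 and 54.6 CPM at R7 and 4.16, 7.88 and 9.65 CPM at R8 (log2 fold change -2.63, SE 0.35, adjusted p = 2.64e-06, edgeR quasi-likelihood test). In the other 3 accessions the R7 to R8 change ran from -0.25 to 0.05. MIDAS went from 18.2, 17.7 and 20.4 CPM at R8 to 6.02, 0.919 and 1.11 CPM at R9 (-3.35, SE 0.42, adjusted p = 2.56e-07), and ICA Bunsi from 30.7, 33.7 and 23.7 CPM to 9.45, 8.99 and 8.42 CPM (-1.70, SE 0.36, adjusted p = 0.00122).

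SXB405 went from 31.5, 48.0 and 26.3 CPM of Phvul.004G001000 at R8 to 12.4, 20.6 and 14.1 CPM at R9 (log2 fold change -1.17, SE 0.32, adjusted p = 0.0267, edgeR quasi-likelihood test). This call was lost without R8 replicate 1 (adjusted p = 0.0514), R8 replicate 2 (0.167), R9 replicate 1 (0.139) or R9 replicate 3 (0.0790). The step differed between accessions from R7 to R8 (adjusted p = 0.000194) and from R8 to R9 (adjusted p = 0.000715).

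Phvul.004G012200 followed the pattern of Phvul.004G011900 in part, at lower levels. Its R7 to R8 log2 fold changes were 0.51 in SXB405 and -0.67 in MIDAS, against 1.53 and 0.21 for Phvul.004G011900. In G12873 it rose at the first step, from 0, 6.07 and 8.91 CPM at R7 to 23.7, 32.9 and 24.4 CPM at R8 (log2 fold change 1.87, SE 0.32, adjusted p = 6.77e-05, edgeR quasi-likelihood test). MIDAS went from 11.4, 10.5 and 9.76 CPM at R8 to 47.2, 44.3 and 42.7 CPM at R9 (2.08, SE 0.28, adjusted p = 6.66e-07), and ICA Bunsi from 17.5, 10.4 and 20.0 CPM to 49.6, 36.3 and 72.0 CPM (1.68, SE 0.27, adjusted p = 0.000108).

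The change of Phvul.004G012200 in SXB405 lay at the fold threshold (log2 fold change 1.02, SE 0.26, adjusted p = 0.0195, edgeR quasi-likelihood test). It missed without SXB405 R8 replicate 1 (0.88), R8 replicate 2 (1.06, adjusted p = 0.0577) or R9 replicate 1 (0.85), and at 0.99 without ICA Bunsi R7 replicate 3, ICA Bunsi R9 replicate 1, ICA Bunsi R9 replicate 3 or MIDAS R8 replicate 2. It was 0.84 without the 8 libraries and 0.99 with effective lengths as offset. The step differed between accessions from R7 to R8 (adjusted p = 0.000421) and from R8 to R9 (adjusted p = 0.00121).

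Phvul.004G014732, high in MIDAS, rose at the first step in the other accessions, by 3.03 (SE 0.51, adjusted p = 5.41e-05) in G12873, 2.52 (SE 0.45, adjusted p = 0.000111) in ICA Bunsi and 2.01 (SE 0.43, adjusted p = 0.000435) in SXB405 on the log2 scale, by edgeR's quasi-likelihood test. MIDAS gave 0.99 (SE 0.34, adjusted p = 0.0320), which crossed the fold threshold when single libraries were left out, for example 1.16 without MIDAS R8 replicate 3. This step differed between accessions (adjusted p = 0.0283).

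From R8 to R9 Phvul.004G014732 rose by 1.60 (SE 0.37, adjusted p = 0.0108) in SXB405, 1.22 (SE 0.34, adjusted p = 0.00437) in MIDAS and 1.09 (SE 0.37, adjusted p = 0.0357) in ICA Bunsi, by edgeR's quasi-likelihood test. The SXB405 call was lost without R8 replicate 1 (adjusted p = 0.0662) or R8 replicate 2 (0.0607), and the MIDAS call without R9 replicate 3 (0.90, adjusted p = 0.0589). The ICA Bunsi call was lost without R8 replicate 2 or 3, R9 replicate 2 or 3, or MIDAS R8 replicate 2 (adjusted p from 0.0508 to 0.409).

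Phvul.004G017000 declined at both steps in SXB405, from 46.5, 39.1 and 45.8 CPM at R7 (R7 to R8 log2 fold change -1.17, SE 0.29, adjusted p = 0.00192, edgeR quasi-likelihood test). It fell from 24.6, 41.4 and 21.5 CPM at R8 to 9.45, 8.04 and 9.36 CPM at R9 in ICA Bunsi (log2 fold change -1.74, SE 0.33, adjusted p = 0.000493, edgeR quasi-likelihood test). MIDAS went from 50.1, 52.1 and 65.8 CPM to 17.1, 26.3 and 12.9 CPM (-1.57, SE 0.30, adjusted p = 0.000104), and SXB405 from 20.8, 20.9 and 16.4 CPM to 10.5, 6.01 and 9.71 CPM (-1.15, SE 0.30, adjusted p = 0.0204). The SXB405 call was lost without R8 replicate 1 (adjusted p = 0.0683), R8 replicate 2 (0.0724) or R9 replicate 2 (0.112). G12873 had 23.9, 13.7 and 14.4 CPM at R8 and 11.1, 18.2 and 19.0 CPM at R9, which overlapped, and the step differed between accessions (adjusted p = 0.0185).

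Phvul.004G021700 was scarce throughout. SXB405 had 0, 0.350 and 0.462 CPM at R8 and 2.47, 1.22 and 3.87 CPM at R9, and ICA Bunsi 0.188, 0.163 and 0.587 CPM and 1.89, 2.39 and 0.936 CPM. MIDAS had no count at R8 and 0, 0.689 and 0.416 CPM at R9, close to its R9 floors of 0.345 to 1.51 CPM, so the MIDAS call (adjusted p = 0.00518, edgeR quasi-likelihood test) has no bounded fold. From R7, at 0.0435, 0 and 0.0632 CPM, to R8 SXB405 was called higher by a narrow margin (2.69, SE 1.04, adjusted p = 0.0475), and that call was lost in 18 of the 36 fits that left out 1 library. The SXB405 rise from R8 to R9 (log2 fold change 3.11, SE 0.78, adjusted p = 0.0176, edgeR quasi-likelihood test) was lost without R8 replicate 1 (adjusted p = 0.0812), R8 replicate 2 (0.0607) or R9 replicate 3 (0.0676). The ICA Bunsi rise (2.59, SE 0.83, adjusted p = 0.0260) was lost without R8 replicate 1 (adjusted p = 0.0914), R8 replicate 2 (0.111), R9 replicate 1 (0.0583) or R9 replicate 2 (0.162), and without the 8 libraries (0.0863).

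Stage also moved 2 members of the run that was low in ICA Bunsi. In G12873 Phvul.004G009000 went from 0, 0 and 2.73 CPM at R7 to 9.59, 13.1 and 3.42 CPM at R8 (log2 fold change 2.09, SE 0.68, adjusted p = 0.0218, edgeR quasi-likelihood test), and the 2 values of 0 lie in the libraries with floors of 9.96 and 3.03 CPM. Phvul.004G009100 also rose there (2.82, SE 0.82, adjusted p = 0.0105), from 0, 0 and 0.475 CPM to 3.23, 3.57 and 1.97 CPM. MIDAS had 4.52, 4.32 and 9.46 CPM of Phvul.004G009000 at R7 and 3.32, 2.87 and 1.80 CPM at R8 (-1.22, SE 0.56, adjusted p = 0.114). The R7 to R8 step of Phvul.004G009000 differed between accessions (adjusted p = 0.0118), and the same test gave 0.0715 for Phvul.004G009100 and 0.424 for Phvul.004G009041.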

How the data were processed

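RNA of 36 pod libraries was sequenced as single reads, per the labels' protocols. The authors deposited 1 kallisto table a library, per the file headers, with estimated counts, TPM, and lengths and effective lengths in bases for 36995 transcripts. The submitters' processing notes name kallisto, limma and edgeR without versions, and for the index, build, annotation and strand setting the sources used here give nothing, so antisense and near-identical genes are uncertain. The deposited estimated counts were summed per gene, rounded and fitted with edgeR 4.0.16 (R 4.3.3; TMM, filterByExpr with a minimum count of 10 and a minimum total of 15, robust quasi-likelihood fit) in 1 model of 12 groups and 36 libraries, with no covariate. CPM used TMM-scaled library sizes, and log2 CPM a prior count of 2. The deposited TPM served for levels only. P-values were Benjamini-Hochberg adjusted over 20966 genes, and a call also needed a log2 difference of at least 1, except for the test of a step that differs. No library pair had identical counts. The fit was tested on simulated data of the MIDAS R8 to R9 step with 20044 genes, where it called 139 of 200 genes changed 4-fold and made 4 false calls. Apart from that change, each simulated gene had 1 mean in all groups, and all genes had 1 spread. The changed genes were drawn from the more abundant ones, and the abundant set did not vary between libraries. These counts therefore give no error rate for the real data or for scarce members.

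The members, the naming rule and the tests were chosen with earlier results of these data known. The rule named, among members with a group mean of at least 5 CPM, those whose libraries separated by accession, up to 2 a direction called for a step in the most accessions, the 2 most abundant, the ends of the longest run of called neighbours, up to 2 with the smallest p for a step that differs, and, whatever their level, the block's first, last and next gene. Alternatives were RLE size factors, limma-voom from limma 3.58.1, DESeq2 1.42.0, no minimum fold change, no filter on low counts, no 50 most abundant genes in scaling, no libraries with over 50% of counts in the abundant set, effective lengths as offset, a replicate block and each library left out. No identifier matched the 34165 RefSeq genes of the reference table, so no gene name, coordinate or sequence is given. Intervals and floors of 3 counts cover counting error only.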

Additional observations from a re-analysis of the deposited data

Results flagged for a closer look

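In 16 named members the stage step itself differed between the 4 accessions at an adjusted p under 0.05 by edgeR's quasi-likelihood F-test, adjusted over all genes tested. From R7 to R8 the members that the text describes were Phvul.004G002600 (adjusted p = 1.63e-05), Phvul.004G001000 (0.000194), Phvul.004G012200 (0.000421), Phvul.004G011900 (0.000449), Phvul.004G001900 (0.00163), Phvul.004G010100 (0.00164), Phvul.004G009000 (0.0118), Phvul.004G009161 (0.0163), Phvul.004G000400 (0.0257), Phvul.004G014732 (0.0283), Phvul.004G002200 (0.0296) and Phvul.004G005400 (0.0360). From R8 to R9 they were Phvul.004G002600 (1.85e-06), Phvul.004G011900 (1.88e-05), Phvul.004G018000 (3.50e-05), Phvul.004G001000 (0.000715), Phvul.004G012200 (0.00121), Phvul.004G002700 (0.00767) and Phvul.004G017000 (0.0185). Phvul.004G008250, named after its values were seen, differed at both steps (0.00778 and 0.0250). The test is built from the accession differences on which the block was selected, and some members were named for that very test, so these values are a description and no count of how common such members are.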

How the results depend on the processing

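Without the 8 libraries rich in the abundant set, members called at all 3 stages for MIDAS and G12873 numbered 11 (10 shared with the 18), those called from R7 to R8 in G12873 27 (23 shared with the 43) and those called from R8 to R9 in ICA Bunsi 12 (all among the 31). With no low-count filter, neighbours shared the sign for G12873 and SXB405 in 44.9%. The other 215 values of this kind over all alternatives but single left-out libraries stayed within 1.5 times the count or within the interval of the share. Leaving out 1 library at a time gave 26 to 51 (G12873), 18 to 36 (ICA Bunsi) and 11 to 31 (MIDAS) members from R7 to R8, 18 to 32 (ICA Bunsi) and 2 to 11 (SXB405) from R8 to R9, 5 to 11 for G12873 and SXB405, 11 to 19 for MIDAS and ICA Bunsi, and 16 to 39 whose R8 to R9 step differed. The R7 to R8 value of Phvul.004G010700 in G12873 ran from -3.77 without R7 replicate 2 to 5.08 without R7 replicate 3, where no R7 library with a count is left. The replicate numbers did not pair the libraries: deviations of same-numbered libraries correlated between -0.161 and 0.259, and in 0 of 8 steps were all pairs over 0.1. With the number as a replicate block, 43, 32, 40 and 22 members were called from R7 to R8 in G12873, ICA Bunsi, SXB405 and MIDAS, and 0, 31, 8 and 42 from R8 to R9. Under the block the calls in SXB405 of Phvul.004G014600 from R8 to R9 (1.30, adjusted p = 0.0540, edgeR) and Phvul.004G021700 from R7 to R8 (2.71, adjusted p = 0.0514) were lost, and no other named call changed. The latter was also lost under DESeq2 (0.0790), limma-voom (0.0879), no low-count filter (0.0526) and without the 8 libraries (0.0600).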
